A study of Mus musculus with 40 samples.

Results

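The transcripts of 10 transcription factor and signalling genes that mark 2 stages of pluripotency were followed across knockouts of CtBP, Dux, Dppa2 and Pramel7 in mouse embryonic stem cells. The core factors are Pou5f1, Sox2, Sall4 and Utf1 (4 genes). The formative factors are Otx2, Pou3f1, Fgf5, Sox3, Zic2 and Etv4 (6 genes). They were taken by gene symbol, and each is 1 row in each of 3 tables of read counts, so that 10 of 55276 genes were used in the genotype table, 10 of 55291 in the Pramel7 table and 10 of 55276 in the time course table. All 10 passed the filter on low counts in all 3 tables.

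RNA was sequenced from E14tg2a, a mouse embryonic stem cell line kept in serum with leukaemia inhibitory factor, in 34 libraries. The study asks how the loss of CtBP, a corepressor encoded by Ctbp1 and Ctbp2, bears on the 2-cell-like state of these cells, with and without Dux, a transcription factor gene of the early embryo. In the genotype table there are 2 libraries per group, of WT cells, CtbpDKO cells that lack both Ctbp genes, DuxKO cells, Ctbp_DuxTKO cells that lack Dux as well as both Ctbp genes, Dppa2KO cells, which lack an activator of Dux, and DKO_Dppa2_KO cells, in which the Ctbp double knockout is combined with loss of Dppa2. The Pramel7 table holds 4 WT libraries (replicates 3 to 6) and 2 libraries each of DuxKO, P7OE (Pramel7 overexpression), DuxKO_P7OE and P7KO cells. The time course follows CtbpDKO cells over days 0, 3, 9, 12 and 18 with 2 libraries a day. Its titles include Dox and its descriptions iCt2, but neither spells out the agent, the construct or its timing. Every library of the course is labelled CtbpDKO, with no WT among them. Ctbp2 reads were nonetheless high at days 3 and 9 and low at days 0, 12 and 18, as given below, so Ctbp2 RNA was raised on those 2 days. The labels name neither the promoter of the Pramel7 transgene nor whether a line is 1 clone, and they do not say that replicates came from separate cultures, so p-values measure the spread between these libraries, which may be technical.

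Pluripotent cells pass from a naive state, which resembles the epiblast before implantation, through a formative state to the primed state of the later epiblast. Pou5f1 and Sox2 bind together at enhancers of pluripotency genes and are held on through these states. Sall4 is a zinc finger factor that recruits chromatin complexes, and Utf1 is a chromatin-bound factor that Pou5f1 and Sox2 activate. Otx2 drives exit from the naive state and moves Pou5f1 to new enhancers, Pou3f1 is a POU factor of the epiblast after implantation and of early neural commitment, and Zic2 is a zinc finger factor that binds enhancers during the same passage. Fgf5 encodes a secreted growth factor that marks the primed epiblast, Sox3 is a close relative of Sox2, and Etv4 is an ETS factor that FGF and ERK signalling induces. In serum cultures the states coexist, and in bulk libraries fewer cells of a state and less RNA per cell cannot be told apart.

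The stretches before the annotated starts of 3 core factors and 1 formative factor show what lies at the start of these genes. They are the 250 bases upstream of the first start that RefSeq gives on GRCm38.p6, read on the strand of the gene, which was the plus strand for all 4. RefSeq windows matched 5 of the 10 genes (Pou5f1, Sox2, Utf1, Otx2 and Fgf5). Capitals mark every match to 1 of 4 short motifs searched on both strands. These were the octamer core ATGCAAA bound by POU factors such as Pou5f1 and Pou3f1, the SOX element ACAATG, the E-box CACCTG, which is bound by ZEB repressors that recruit CtBP, and the GC box GGGCGG. The sequences lie at chr3:34649745-34649994 for Sox2, chr17:35505782-35506031 for Pou5f1, chr7:139943606-139943855 for Utf1 and chr5:98253934-98254183 for Fgf5.
Sox2: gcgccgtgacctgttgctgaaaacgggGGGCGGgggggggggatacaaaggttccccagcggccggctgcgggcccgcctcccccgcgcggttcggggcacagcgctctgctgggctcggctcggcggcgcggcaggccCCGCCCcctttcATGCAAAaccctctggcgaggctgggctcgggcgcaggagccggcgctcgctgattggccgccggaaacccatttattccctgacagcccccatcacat
Pou5f1: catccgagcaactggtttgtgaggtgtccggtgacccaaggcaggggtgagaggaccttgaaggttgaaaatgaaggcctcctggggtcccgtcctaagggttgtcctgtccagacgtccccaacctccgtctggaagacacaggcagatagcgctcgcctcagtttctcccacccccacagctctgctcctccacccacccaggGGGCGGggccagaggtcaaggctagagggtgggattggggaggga
Utf1: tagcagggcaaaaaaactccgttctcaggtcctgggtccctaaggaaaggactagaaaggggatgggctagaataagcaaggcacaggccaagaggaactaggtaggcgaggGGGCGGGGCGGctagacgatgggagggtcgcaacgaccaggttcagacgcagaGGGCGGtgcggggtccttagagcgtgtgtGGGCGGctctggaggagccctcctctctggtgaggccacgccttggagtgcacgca
Fgf5: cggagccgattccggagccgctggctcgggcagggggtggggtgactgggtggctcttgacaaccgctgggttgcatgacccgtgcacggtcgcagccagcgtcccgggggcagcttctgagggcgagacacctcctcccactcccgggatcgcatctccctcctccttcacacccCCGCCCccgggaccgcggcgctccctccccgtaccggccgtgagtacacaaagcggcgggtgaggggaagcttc

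The Sox2 window held 1 octamer core, 99 bases before the start, and 2 GC boxes. The Utf1 window held 4 GC boxes, of which 2 overlap at 138 and 133 bases before the start. The Pou5f1 and Fgf5 windows held 1 GC box each, 45 and 74 bases before the start. A second Pou5f1 start within the gene had a SOX element 158 bases upstream, and the 4 Otx2 windows held 0 matches to any of the 4 motifs. Over 32851 mouse windows of the same length, 4.12% held an octamer core, 10.7% a SOX element, 17.2% the E-box and 32.7% a GC box. The E-box was in 0 of the 9 windows of the 5 genes. A match is a run of letters and not a tested site.

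Libraries of the genotype table held 19944644 to 36025046 counts each, those of the Pramel7 cells 10123058 to 30135341 and those of the course 16674526 to 30169626. Levels are given as CPM, a gene's count scaled to the size of its library. Ctbp1 had 1911 and 2109 counts in WT and 0 to 4 in every library labelled as lacking the Ctbp genes. Ctbp2 kept 1429 and 1568 counts in CtbpDKO against 6293 and 6591 in WT, and Dppa2 kept 1208 and 1027 in Dppa2KO against 1707 and 1868. Both falls go with the labels, but which part of either gene was deleted is not stated, so the remaining reads cannot show complete loss. Pramel7 had 431 to 588 counts in the overexpressing libraries, 2 to 4 in WT of the same table and 0 and 3 in P7KO, so its low WT level leaves the P7KO label unchecked. Duxf3, the Dux gene of the files, had 1 and 0 counts in WT of the genotype table and 40 and 24 in CtbpDKO, so its 0 counts in DuxKO check nothing against WT. The libraries called DKO_Dppa2_KO here are so named in their description, while their title names Dppa2 and Dux. Their Ctbp1 counts were 4 and 0, and Dppa2 was at 21.3 and 19.7 CPM in them, against 89.9 and 101 CPM in CtbpDKO. Their Duxf3 counts were 0 as well. All 10 embryonic stem cell markers of a listed set, Pou5f1 and Sox2 among them, were above 1 CPM in every group, and 7 of 12 neural markers were under 1 CPM in every group.

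Of the core factors, 2 fell, 1 rose and 1 was not called when CtBP was lost, and the changes were small. Pou5f1 stood at 735 and 757 CPM in WT and 615 and 551 CPM in CtbpDKO. Sox2 went from 180.0 and 203 CPM to 146 and 145 CPM. Utf1 was at 82.9 and 94.5 CPM in WT and at 123 and 111 CPM in CtbpDKO. Both CtbpDKO libraries were below both WT libraries for Pou5f1 and Sox2, and both were above for Utf1. In edgeR's quasi-likelihood fit, with p-values adjusted over all genes tested by the Benjamini-Hochberg method, Pou5f1 fell 1.28-fold (log2 change -0.36, SE 0.10, adjusted p = 0.0223) and Sox2 fell 1.32-fold (log2 change -0.40, SE 0.08, adjusted p = 0.0035), while Utf1 rose 1.32-fold (log2 change 0.40, SE 0.11, adjusted p = 0.0195). Sall4 had 506 and 497 CPM against 443 and 488 CPM and was not called (log2 change 0.11, SE 0.10, adjusted p = 0.485). A gene is called here at an adjusted p under 0.05. With 1 of the 4 libraries left out at a time, the adjusted p of Pou5f1 ran from 0.0255 to 0.16 and its call was lost without WT replicate 1, WT replicate 2 or CtbpDKO replicate 2. That of Utf1 ran from 0.0315 to 0.176 and was lost without WT replicate 1 or CtbpDKO replicate 1.

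Of the formative factors in CtbpDKO, 4 of 6 fell, 1 rose and Sox3 was not called. Zic2 was at 30.6 and 35.1 CPM in WT and at 15.1 and 12.9 CPM in CtbpDKO. Etv4, the target of FGF and ERK signalling, went the other way, from 81.1 and 91.9 CPM to 178 and 174 CPM. Neither pair of groups overlapped, and Zic2 was 2.35-fold lower (log2 change -1.23, SE 0.14, adjusted p = 3.17e-05) and Etv4 2.03-fold higher (log2 change 1.02, SE 0.10, adjusted p = 4.04e-06). Otx2 had 10.9 and 11.1 CPM in WT and 7.05 and 8.38 CPM in CtbpDKO (log2 change -0.51, SE 0.13, adjusted p = 0.0124). Pou3f1 had 9.90 and 9.39 CPM and 6.83 and 6.54 CPM (log2 change -0.53, SE 0.17, adjusted p = 0.0333). Fgf5 had 1.31 and 1.73 CPM and 0.671 and 0.810 CPM (log2 change -1.03, SE 0.34, adjusted p = 0.0389), on 39 and 53 counts in WT and 22 and 29 in CtbpDKO. For all 3 the CtbpDKO libraries lay below the WT libraries. Their calls rested on the full set of libraries. Pou3f1 and Fgf5 lost the call without any 1 of the 4 libraries (adjusted p 0.0822 to 0.15 and 0.0551 to 0.201) and with DESeq2. Otx2 lost it without either WT library or CtbpDKO replicate 1 (adjusted p 0.0163 to 0.101 over the 4). Sox3 was at 3.51 and 4.02 CPM against 4.19 and 4.04 CPM (log2 change -0.13, SE 0.21, adjusted p = 0.722).

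Altogether 8 of the 10 genes were called in CtbpDKO against WT, 2 higher and 6 lower, where 26.1% of all 21193 genes tested were called (14.7% higher and 11.4% lower). Without 1 library the count was 3 without WT replicate 1, 4 without WT replicate 2 or CtbpDKO replicate 1 and 5 without CtbpDKO replicate 2, so Zic2, Etv4 and Sox2 were the genes that kept the call in each of these fits. The summed level of 10 markers of the 2-cell-like state was 36.7 to 43.7 CPM in CtbpDKO and 0.587 to 1.01 CPM in WT, and that of 10 trophoblast markers was 212 to 218 CPM and 54.8 to 56.1 CPM. Of the former, 6 of 10 were at 1 CPM or more in CtbpDKO and 0 of 10 in WT. Of the latter, 8 of 10 were at 1 CPM or more in CtbpDKO and 6 of 10 in WT. Their part in the changes of the 10 genes was not tested.

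**Figure D1:**
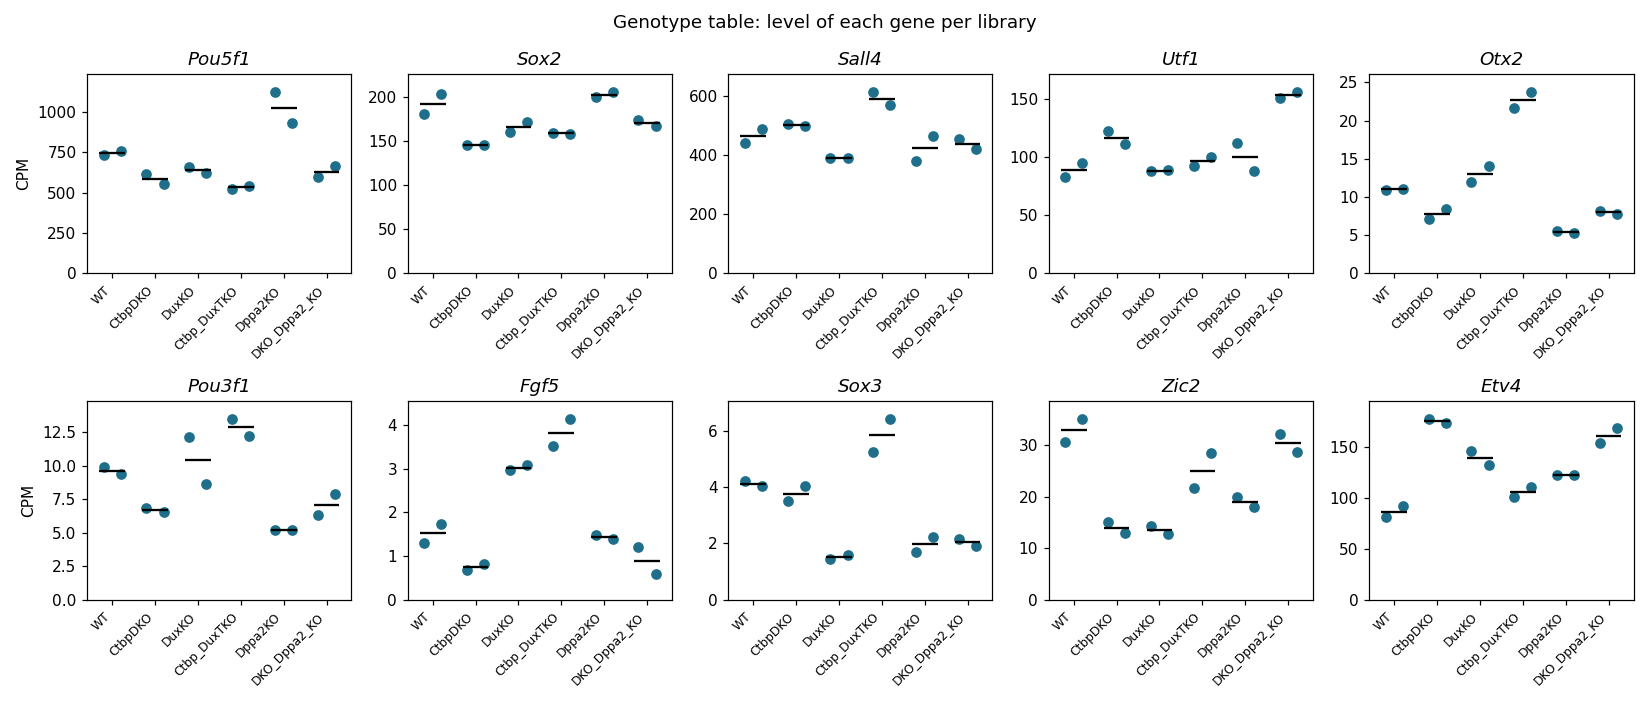
Level of each of the 10 genes in the 12 libraries of the genotype table, in CPM on linear axes that start at 0, with 1 point per library and a bar at the mean of each group. Zic2 is low in CtbpDKO and DuxKO, Etv4 is highest in CtbpDKO, and Otx2 and Fgf5 are highest in Ctbp_DuxTKO.

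When Dux was removed on top of the Ctbp genes, formative factors stood higher than in CtbpDKO. Otx2 was at 7.05 and 8.38 CPM in CtbpDKO and at 21.6 and 23.7 CPM in Ctbp_DuxTKO. Fgf5 was at 0.671 and 0.810 CPM and 3.51 and 4.14 CPM. Both Ctbp_DuxTKO libraries were above both CtbpDKO libraries, and above both WT libraries, for each gene. Otx2 rose 2.93-fold (log2 change 1.55, SE 0.13, adjusted p = 2.71e-05) and Fgf5 rose 5.14-fold (log2 change 2.36, SE 0.33, adjusted p = 0.000813, edgeR's quasi-likelihood test). Pou3f1 rose from 6.83 and 6.54 CPM to 13.5 and 12.3 CPM (log2 change 0.95, SE 0.17, adjusted p = 0.00445). Zic2 rose from 15.1 and 12.9 CPM to 21.7 and 28.5 CPM (log2 change 0.84, SE 0.15, adjusted p = 0.00361), which left it below both WT libraries. Etv4 fell from 178 and 174 CPM to 101 and 111 CPM (log2 change -0.73, SE 0.10, adjusted p = 0.000542) and was still above both WT libraries. Of the 10 genes, 4 rose and 1 fell, where 8.15% of all genes tested were called (3.60% higher and 4.54% lower). All 5 calls were kept with each library left out and in every alternative run. The core factors had log2 changes of -0.13 (adjusted p = 0.5) for Pou5f1, 0.13 (adjusted p = 0.413) for Sox2, 0.24 (adjusted p = 0.18) for Sall4 and -0.28 (adjusted p = 0.162) for Utf1, and Sox3 had 0.63 (adjusted p = 0.0884). The 10 primitive endoderm markers summed to 756 to 772 CPM in Ctbp_DuxTKO and to 264 in both libraries in CtbpDKO, with 0 and 1 of the 10 under 1 CPM. The 2-cell-like markers summed to 0.136 to 0.260 CPM in Ctbp_DuxTKO. Their part in the changes was not tested.

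DuxKO cells differed from WT in 4 of the 10 genes, all formative, with 2 higher and 2 lower where 17.5% of all genes tested were called (7.94% higher and 9.56% lower). Zic2 was at 14.4 and 12.7 CPM in DuxKO, below WT by 2.43-fold (log2 change -1.28, SE 0.15, adjusted p = 6.21e-05). Sox3 was at 1.43 and 1.60 CPM, against 4.19 and 4.04 CPM in WT (log2 change -1.44, SE 0.23, adjusted p = 0.000915). Etv4 was at 147 and 132 CPM and rose 1.61-fold (log2 change 0.69, SE 0.10, adjusted p = 0.000282). None of these 3 overlapped WT. Fgf5 was at 2.96 and 3.09 CPM (log2 change 0.99, SE 0.31, adjusted p = 0.0409), a call that was lost without any 1 of the 4 libraries (adjusted p 0.0786 to 0.215) and with DESeq2. The 4 core factors were not called, with log2 changes from -0.25 for Sall4 to -0.01 for Utf1, and Otx2 and Pou3f1 had 0.24 (adjusted p = 0.234) and 0.11 (adjusted p = 0.703).

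Set against DuxKO rather than CtbpDKO, Ctbp_DuxTKO cells asked what loss of CtBP does where Dux is absent. Of the 10 genes, 4 rose and 1 fell, where 41.0% of all genes tested were called (21.4% higher and 19.6% lower). Sox3 was at 1.43 and 1.60 CPM in DuxKO and 5.25 and 6.42 CPM in Ctbp_DuxTKO, 3.86-fold higher (log2 change 1.95, SE 0.23, adjusted p = 2.07e-05). Zic2, Otx2 and Sall4 were also higher, by 0.89, 0.80 and 0.60 on the log2 scale (edgeR adjusted p = 0.00031, 0.000287 and 0.000395). Sall4 had 613 and 570.2 CPM against 391 and 389 CPM, and this is the 1 comparison of 2 groups in the genotype table in which it was called. Etv4 was lower (log2 change -0.39, SE 0.10, adjusted p = 0.00505), a call lost without DuxKO replicate 1 (adjusted p 0.00639 to 0.064 over the 4 libraries left out). The 10 primitive endoderm markers summed to 117 to 119 CPM in DuxKO and 756 to 772 CPM in Ctbp_DuxTKO, with 4 and 0 of 10 under 1 CPM, and the 10 trophoblast markers to 66.3 to 72.9 CPM and 201 to 202 CPM, with 3 and 2 of 10 under 1 CPM. Their part in these changes was not tested.

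The effect of CtBP loss differed with the Dux genotype for 7 of the 10 genes, by the interaction term of the same fit (the change in cells without Dux minus the change in cells with it). In that term 19.5% of all genes tested were called (9.82% higher and 9.64% lower). Zic2 fell with CtBP loss where Dux was intact and rose where it was absent, a difference of 2.12 (SE 0.21, edgeR adjusted p = 2.16e-05). Etv4 rose in the first background and fell in the second (-1.41, SE 0.13, adjusted p = 1.92e-05). Otx2 fell and then rose in the same way (1.31, SE 0.19, adjusted p = 0.00038). Sox3 differed by 2.08 (SE 0.32, adjusted p = 0.000619). Pou3f1, Sall4 and Fgf5 passed less firmly, at 0.83 (adjusted p = 0.0252), 0.49 (adjusted p = 0.0288) and 1.37 (adjusted p = 0.0473). Leaving out 1 of the 8 libraries at a time ended the call of Pou3f1 in 6 fits, of Sall4 in 6 and of Fgf5 in 8, with adjusted p-values from 0.0115 to 0.103, from 0.037 to 0.128 and from 0.0562 to 0.163. Pou5f1, Sox2 and Utf1 had differences of 0.09 (adjusted p = 0.704), 0.33 (adjusted p = 0.0682) and -0.27 (adjusted p = 0.275). The count of 7 became 4 without WT replicate 2, DuxKO replicate 2, CtbpDKO replicate 1, CtbpDKO replicate 2 or Ctbp_DuxTKO replicate 1.

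In Dppa2KO cells 4 of the 6 formative factors were lower than in WT, and Pou5f1 and Etv4 were higher. Otx2 was at 5.48 and 5.25 CPM in Dppa2KO, 2.05-fold below WT (log2 change -1.04, SE 0.14, adjusted p = 0.000361). Pou3f1 was at 5.20 and 5.25 CPM (log2 change -0.88, SE 0.17, adjusted p = 0.00397). Both were the lowest levels of these genes in the 12 libraries of the table. Zic2 had 19.9 and 18 CPM (log2 change -0.80, SE 0.14, adjusted p = 0.00244). Sox3 had 1.68 and 2.24 CPM (log2 change -1.07, SE 0.22, adjusted p = 0.0062). Etv4 had 123 and 123 CPM and was higher than in WT (log2 change 0.51, SE 0.10, adjusted p = 0.00334). Neither Zic2, Sox3 nor Etv4 overlapped WT. Pou5f1 had 1123 and 929.5 CPM, the highest of the table, and rose 1.38-fold (log2 change 0.46, SE 0.10, adjusted p = 0.00982), but lost the call without WT replicate 1, WT replicate 2 or Dppa2KO replicate 1 (adjusted p 0.00457 to 0.0919 over the 4 libraries left out). Sox3 lost it without Dppa2KO replicate 1 (adjusted p 0.0111 to 0.0657). In all, 2 of the 10 genes rose and 4 fell, where 16.4% of all genes tested were called (7.67% higher and 8.69% lower). This comparison shares its WT libraries with those of CtbpDKO and DuxKO.

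In the Dppa2-deficient background, loss of CtBP raised Zic2, Otx2, Utf1 and Etv4 and lowered Pou5f1 and Sox2, which is 6 of the 10 genes where 30.4% of all genes tested were called (15.2% higher and 15.2% lower). Zic2 stood at 32.1 and 28.7 CPM in DKO_Dppa2_KO against 19.9 and 18 CPM in Dppa2KO (log2 change 0.68, SE 0.14, adjusted p = 0.00274). Utf1 stood at 150.4 and 156 CPM against 112 and 88.1 CPM (log2 change 0.61, SE 0.11, adjusted p = 0.00115). Pou5f1 stood at 595 and 668 CPM against 1123 and 929.5 CPM (log2 change -0.70, SE 0.10, adjusted p = 0.000228). The 2 groups did not overlap for any of these. Otx2 and Etv4 rose by 0.57 (adjusted p = 0.00762) and 0.39 (adjusted p = 0.00694) on the log2 scale, the latter not without DKO_Dppa2_KO replicate 2 (adjusted p 0.0129 to 0.071 over the 4 libraries left out). Sox2 had -0.25 (adjusted p = 0.0409) and lost the call without any 1 of the 4 libraries (adjusted p 0.0691 to 0.176). The 10 trophoblast markers summed to 35.6 to 40.6 CPM in Dppa2KO and 202 to 207 CPM in DKO_Dppa2_KO, with 4 and 3 of 10 under 1 CPM, and the 8 mesendoderm markers to 5.87 to 5.89 CPM and 20.2 to 20.7 CPM, with 7 and 6 of 8 under 1 CPM. Their part in these changes was not tested. Against CtbpDKO, the same libraries had Zic2 higher (log2 change 1.12, SE 0.15, adjusted p = 0.000318), Utf1 higher (log2 change 0.39, SE 0.11, adjusted p = 0.0341) and Sox3 lower (log2 change -0.89, SE 0.23, adjusted p = 0.0209), 3 of 10 genes where 15.4% of all were called (5.75% higher and 9.67% lower). Zic2 was the 1 that kept the call with each library left out. Utf1 and Sox3 lost it without any 1 of the 4 libraries (adjusted p 0.0523 to 0.193 and 0.0525 to 0.136). The interaction of CtBP and Dppa2 loss was called for Zic2 (1.91, adjusted p = 0.000207), Otx2 (1.08, adjusted p = 0.00506), Pou3f1 (0.97, adjusted p = 0.0279) and Etv4 (-0.63, adjusted p = 0.0125), 4 of 10 genes where 8.23% of all were called (3.23% higher and 5.0% lower). The Pou3f1 term was lost in 7 of 8 fits without 1 library, all but that without DKO_Dppa2_KO replicate 1 (adjusted p 0.0268 to 0.117), and the Etv4 term without WT replicate 1 or DKO_Dppa2_KO replicate 1 (adjusted p 0.0218 to 0.0603), so that the count was 2 without WT replicate 1.

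Across the 6 genotypes the order of the levels differed from gene to gene. Otx2 was highest in Ctbp_DuxTKO, followed by DuxKO and WT, then by DKO_Dppa2_KO and CtbpDKO, whose ranges overlapped, and was lowest in Dppa2KO. The libraries of DuxKO and WT did not overlap for Otx2, but their difference was not called. Zic2 was highest in WT and DKO_Dppa2_KO, which overlapped, followed by Ctbp_DuxTKO and Dppa2KO, and lowest in CtbpDKO and DuxKO, which overlapped. Etv4 had the order CtbpDKO, DKO_Dppa2_KO, DuxKO, Dppa2KO, Ctbp_DuxTKO and WT with no overlap between neighbours. The highest group mean was 5.17 times the lowest for Fgf5, and 1.52 times for Sall4 and 1.39 times for Sox2.

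In the Pramel7 table, WT replicates 3 and 4 ranked both above or both below replicates 5 and 6 for all of these genes but Sox3. The labels do not say why. They are called the WT pairs here, but the libraries of a pair were not always alike. Otx2 was at 27.4 and 22.2 CPM in replicates 5 and 6, and at 21.0 CPM in replicate 3. Pou3f1 was at 91.1, 90.7, 50.5 and 56.4 CPM in WT replicates 3 to 6 in that order. Fgf5 was at 18.2, 15.1, 10.7 and 8.46 CPM and Utf1 at 33.1, 37.8, 76.1 and 67.1 CPM. Replicates 3 and 4 were higher than replicates 5 and 6 for Pou3f1, Fgf5, Zic2 and Etv4 and lower for Utf1, Sall4, Sox2, Pou5f1 and Otx2. The trophoblast markers, summed, ran from 116 to 236 CPM over the 4 libraries. Results against WT are therefore also given with 1 pair at a time, on the log2 scale.

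Pramel7, a substrate receptor of a ubiquitin ligase that lowers DNA methylation in naive cells, was lost in P7KO cells, where 4 formative factors fell and 0 of the 10 genes rose. Of all genes tested 9.48% were called (5.55% lower). Fgf5 was at 1.67 and 1.46 CPM in P7KO, 8.36-fold below the 4 WT libraries (log2 change -3.06, SE 0.31, adjusted p = 6.79e-05). Pou3f1 was at 11.4 and 13.6 CPM, 5.76-fold below WT (log2 change -2.53, SE 0.25, adjusted p = 6.79e-05). Zic2 was at 16.3 and 15.3 CPM against 55.1, 53.3, 50.9 and 49.8 CPM in WT (log2 change -1.72, SE 0.12, adjusted p = 3.54e-06). All 3 lay below every WT library of this table. WT of the genotype table, scaled separately, had means of 1.52 CPM for Fgf5, 9.64 CPM for Pou3f1 and 32.9 CPM for Zic2. The P7KO means were 1.56, 12.5 and 15.8 CPM, and differences between the tables were not tested. Against WT replicates 3 and 4 the log2 changes were -3.43, -2.89 and -1.80 for Fgf5, Pou3f1 and Zic2, and against replicates 5 and 6 they were -2.62, -2.10 and -1.68, all called. Sox3 was at 2.55 and 1.98 CPM against 4.96, 5.34, 5.16 and 4.23 CPM (log2 change -1.12, SE 0.25, adjusted p = 0.0119) and lost the call without P7KO replicate 1 or 2 (adjusted p 0.00786 to 0.149 over the 6 libraries left out). Otx2 had 18.2 and 20.9 CPM, overlapping the WT libraries at 21, 19.1, 27.4 and 22.2 CPM (log2 change -0.20, SE 0.15, adjusted p = 0.476).

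None of the 4 core factors was called in P7KO. Pou5f1 was at 972 and 926 CPM against 631, 646, 815 and 717 CPM in WT, above every WT library, and did not pass the threshold (log2 change 0.43, SE 0.13, adjusted p = 0.0611). Sox2 was at 252 and 259.8 CPM against 178, 167, 227 and 223 CPM (log2 change 0.37, SE 0.14, adjusted p = 0.131). Against WT replicates 3 and 4 alone, Pou5f1 (log2 change 0.54), Sox2 (0.54) and Utf1 (0.91) were called higher, which brings the count of called genes to 7, and against replicates 5 and 6 none of the 3 was. Etv4 had 87 and 90.3 CPM against 75.4, 71.2, 59.1 and 53.1 CPM (log2 change 0.45, SE 0.14, adjusted p = 0.0582) and was called against replicates 5 and 6 alone (0.65). The 12 neural markers summed to 64.5 to 70.0 CPM in P7KO and 117 to 139 CPM in WT, with 7 of 12 under 1 CPM in both, and the 8 mesendoderm markers to 16.7 to 16.8 CPM and 31.3 to 45.8 CPM, with 5 and 4 of 8 under 1 CPM. Primitive endoderm markers (66.4 to 68.7 against 96.6 to 117 CPM) and trophoblast markers (74.4 to 77.5 against 116 to 236 CPM) were also lower than in WT. So were fibroblast markers (1.25 to 2.23 against 4.59 to 6.11 CPM), while 2-cell-like markers were higher (2.16 to 2.61 against 1.04 to 2.08 CPM). The part of these marker sets in the lower levels of Fgf5, Pou3f1, Zic2 and Sox3 was not tested.

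**Figure D2:**
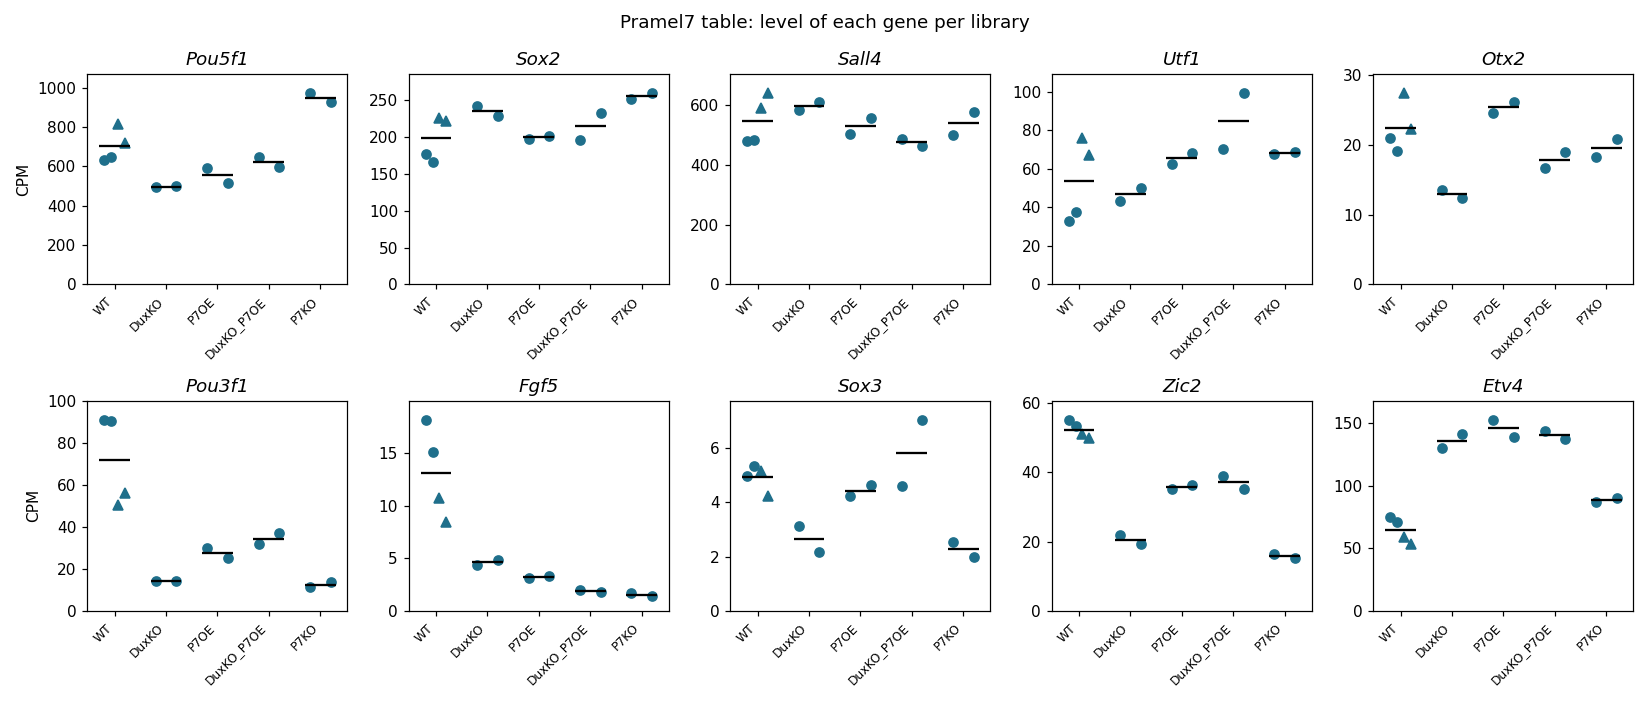
Level of each of the 10 genes in the 12 libraries of the Pramel7 table, in CPM on linear axes that start at 0, with 1 point per library and bars at group means. WT circles are replicates 3 and 4 and WT triangles replicates 5 and 6. Pou3f1, Fgf5 and Zic2 are lower than all WT libraries in each of the other 4 groups.

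Overexpression of Pramel7 also lowered Pou3f1 and Fgf5, and raised Etv4. Pou3f1 was at 30.2 and 25.3 CPM in P7OE, 2.60-fold below WT (log2 change -1.38, SE 0.24, adjusted p = 0.00152). Fgf5 was at 3.16 and 3.29 CPM, 4.07-fold below WT (log2 change -2.03, SE 0.29, adjusted p = 0.000435). Both genes stood above their WT means in the genotype table, scaled separately (9.64 CPM for Pou3f1 and 1.52 CPM for Fgf5). Etv4 was at 153 and 139 CPM against 75.4, 71.2, 59.1 and 53.1 CPM in WT (log2 change 1.17, SE 0.14, adjusted p = 9.53e-05). None of the 3 overlapped WT, and all 3 were called against each WT pair alone, with log2 changes against replicates 3 and 4 of -1.75, -2.41 and 0.95 and against replicates 5 and 6 of -0.96, -1.59 and 1.36. Zic2 was at 35.3 and 36.5 CPM (log2 change -0.54, SE 0.11, adjusted p = 0.00483), and lost the call without P7OE replicate 1 or 2 (adjusted p 0.00287 to 0.0684 over the 6 libraries left out). In all, 1 of the 10 genes rose and 3 fell, where 19.9% of all genes tested were called (11.0% higher and 8.90% lower). Otx2 (0.18, adjusted p = 0.449), Sox3 (-0.16, adjusted p = 0.683) and the 4 core factors were not called. The 10 primitive endoderm markers summed to 488 to 556 CPM in P7OE and 96.6 to 117 CPM in WT, with 1 and 5 of 10 under 1 CPM, and the 2-cell-like markers to 14.2 to 18.3 CPM and 1.04 to 2.08 CPM. Lower than in WT were the mesendoderm markers (12.3 to 12.8 against 31.3 to 45.8 CPM) and the trophoblast markers (66.6 to 68.8 against 116 to 236 CPM). The fibroblast markers were lower as well (2.87 to 2.98 against 4.59 to 6.11 CPM), and the neural markers overlapped WT. The part of these marker sets in these changes was not tested. The comparison shares its WT libraries with that of P7KO.

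In cells without Dux the same overexpression went with higher Pou3f1. Pou3f1 was at 14.4 and 14.1 CPM in DuxKO and 31.9 and 37 CPM in DuxKO_P7OE, 2.42-fold higher (log2 change 1.28, SE 0.27, adjusted p = 0.00531). Zic2 was at 21.8 and 19.2 CPM and 38.8 and 35.3 CPM (log2 change 0.86, SE 0.13, adjusted p = 0.000711). Sox3 was at 3.13 and 2.18 CPM and 4.59 and 7.04 CPM (log2 change 1.14, SE 0.29, adjusted p = 0.0135). For all 3 both DuxKO_P7OE libraries were above both DuxKO libraries. Sox3 lost the call without DuxKO replicate 4 or DuxKO_P7OE replicate 2 (adjusted p 0.0138 to 0.135 over the 4 libraries left out). Fgf5 was lower, at 2.02 and 1.83 CPM against 4.36 and 4.86 CPM (log2 change -1.26, SE 0.36, adjusted p = 0.0257), on 22 and 19 counts, and lost the call without any 1 of the 4 libraries (adjusted p 0.0715 to 0.122). Thus 3 of the 10 genes rose and 1 fell, where 21.4% of all genes tested were called (11.6% higher and 9.83% lower). The count was 2 without DuxKO replicate 4 or DuxKO_P7OE replicate 2, and 7 when only the 2 groups were fitted, where Pou5f1, Utf1 and Otx2 were called higher as well. The 10 primitive endoderm markers summed to 96.3 to 99.4 CPM in DuxKO and 530.4 to 580.1 CPM in DuxKO_P7OE, with 3 and 1 of 10 under 1 CPM, and the 10 trophoblast markers to 118 to 122 CPM and 56.9 to 57 CPM, with 3 of 10 under 1 CPM in both. Their part in these changes was not tested.

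The effect of Pramel7 overexpression on Pou3f1 differed between the backgrounds by 2.66 on the log2 scale (SE 0.36, adjusted p = 0.000835, edgeR interaction term). Zic2 differed by 1.40 (SE 0.17, adjusted p = 0.000465) and Etv4 by -1.12 (SE 0.21, adjusted p = 0.00706). That is 3 of 10 genes where 7.50% of all were called (4.27% higher and 3.23% lower), and 5 with DESeq2, 6 against WT replicates 3 and 4 alone and 5 against replicates 5 and 6 alone. For Pou3f1 the group means were 72.2 CPM in WT, 27.7 CPM in P7OE, 14.2 CPM in DuxKO and 34.5 CPM in DuxKO_P7OE. Its term thus rests in part on the WT level of this table, while WT of the genotype table, scaled separately, was at 9.64 CPM. The part of this difference in WT was not tested. P7OE and DuxKO_P7OE also differed in the level of Pramel7, and the part of that difference was not tested. Once Pramel7 was overexpressed, the Dux genotype made no called difference to any of the 10 genes. DuxKO_P7OE against P7OE gave 0 called genes of 10 by edgeR and 0 by DESeq2, with 1 at an unadjusted p under 0.05, where 0.0298% of all genes tested were called. The log2 change of Pou3f1 in that comparison was 0.31 (adjusted p = 0.702) and that of Fgf5 was -0.74 (adjusted p = 0.48).

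DuxKO cells were compared with WT in both the genotype and the Pramel7 table, each against its own WT. Zic2 fell in both, by 1.28 and 1.35 on the log2 scale, and Etv4 rose in both, by 0.69 and 1.07. Sox3 fell in both as well, by 1.44 and 0.90, with the call in the Pramel7 table lost without DuxKO replicate 3 or 4 (adjusted p 0.0177 to 0.273 over the 6 libraries left out). The other formative factors gave values of opposite sign or size. Pou3f1 was at 14.4 and 14.1 CPM in DuxKO of the Pramel7 table, 5.07-fold below WT (log2 change -2.34, SE 0.25, adjusted p = 5.26e-05, edgeR), and the change was -2.72 against WT replicates 3 and 4 and -1.93 against replicates 5 and 6. In the genotype table it was 0.11 (adjusted p = 0.703). Fgf5 had 4.36 and 4.86 CPM in DuxKO of the Pramel7 table (log2 change -1.50, SE 0.28, adjusted p = 0.00262), with -1.89 and -1.07 against the WT pairs, and was called higher in the genotype table. Otx2 had 13.5 and 12.4 CPM (log2 change -0.79, SE 0.16, adjusted p = 0.00434), a call lost without DuxKO replicate 4 (adjusted p 0.00288 to 0.077 over the 6).

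The WT levels behind these opposite values also differed between the tables. WT cells of the genotype table had Pou3f1 at 9.64 ± 0.36 (SD, n = 2) CPM and those of the Pramel7 table at 72.2 ± 22 (SD, n = 4) CPM. Fgf5 was at 1.52 ± 0.3 (SD, n = 2) and 13.1 ± 4.4 (SD, n = 4) CPM. The DuxKO means lay closer together, at 10.4 ± 2.5 (SD, n = 2) and 14.2 ± 0.21 (SD, n = 2) CPM for Pou3f1 and 3.03 ± 0.094 (SD, n = 2) and 4.61 ± 0.35 (SD, n = 2) CPM for Fgf5. The tables were scaled separately, and differences between them were not tested. In the Pramel7 table the mesendoderm markers summed to 31.3 to 45.8 CPM in WT and 14.8 to 19.4 CPM in DuxKO, with 4 of 8 under 1 CPM in both, and their part in these changes was not tested. Pou5f1 was lower in DuxKO of the Pramel7 table (log2 change -0.50, SE 0.14, adjusted p = 0.0274), a call lost without DuxKO replicate 3 or 4 (adjusted p 0.0159 to 0.171 over the 6 libraries left out) and when only the 2 groups were fitted. In all, 1 of the 10 genes rose and 6 fell in that table, where 16.7% of all genes tested were called (7.76% higher and 8.91% lower), and the count was 4 without DuxKO replicate 4. This comparison shares its WT libraries with those of P7OE and P7KO.

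**Figure D3:**
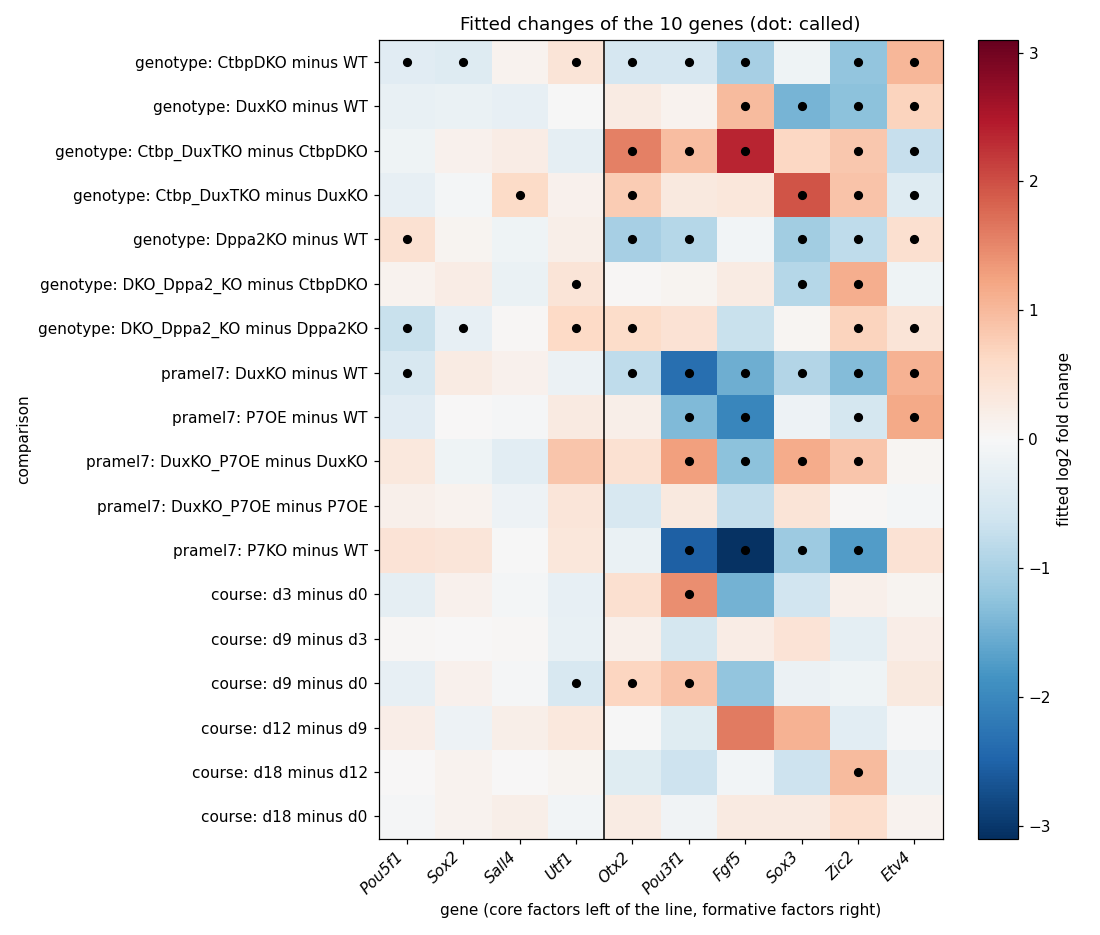
Fitted log2 change of each of the 10 genes (columns) in the 18 comparisons between 2 groups (rows), as colour, with a dot where the adjusted p was under 0.05. The formative factors carry most of the strong colours, and the rows of DuxKO against WT in the 2 tables differ in colour for Otx2, Pou3f1 and Fgf5.

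In the time course Ctbp2 went from 1184 and 1328 counts at day 0 to 11119 and 11231 at day 3, stood at 8466 and 6774 at day 9, and were at 866 and 1268 at day 12 and 926 and 1646 at day 18. Pou3f1 was at 4.48 and 4.29 CPM at day 0 and 13.3 and 10.6 CPM at day 3, and it was the 1 gene of 10 called between these days, 2.73-fold higher (log2 change 1.45, SE 0.20, adjusted p = 0.000876, edgeR) where 4.99% of all genes tested were called (2.41% higher). The call was kept with each library left out. It then stood at 8.05 and 8.25 CPM at day 9, 5.93 and 6.60 CPM at day 12 and 3.62 and 4.39 CPM at day 18. The days of high Ctbp2 were thus the days of high Pou3f1, with both libraries of days 3 and 9 above all libraries of the other days. At day 9 against day 0, 2 of the 10 genes were higher and 1 lower, where 7.34% of all were called (3.60% higher and 3.73% lower). They were Pou3f1 (0.89, adjusted p = 0.0134), Otx2 (0.66, adjusted p = 0.00855) and Utf1 (-0.49, adjusted p = 0.0223). Pou3f1 and Utf1 lost the call without any 1 of the 4 libraries (adjusted p 0.0657 to 0.0748 and 0.0913 to 0.143) and Otx2 without day 0 replicate 1 or either day 9 library (adjusted p 0.0222 to 0.0916), so that the count was 0 without day 0 replicate 1, day 9 replicate 1 or day 9 replicate 2 and 1 without day 0 replicate 2. The days 0 and 9 comparison and the days 0 and 3 comparison share the day 0 libraries.

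Otx2 was at 9.61 and 11 CPM at day 0, 14.6 and 14.4 CPM at day 3, 16.4 and 16.3 CPM at day 9, 16.8 and 15.6 CPM at day 12 and 12 and 12.7 CPM at day 18. Days 0 and 18 were the low ends of this range, and the libraries of days 9 and 12 overlapped. Zic2 was at 22.6 and 20.3 CPM at day 12 and 40.3 and 44.2 CPM at day 18, a rise (log2 change 0.98, SE 0.14, adjusted p = 0.00405) that was the 1 call of 10 where 0.820% of all genes tested were called (0.640% higher), and that was lost without day 12 replicate 2 (adjusted p 0.0171 to 0.071 over the 4 libraries left out). The 10 primitive endoderm markers summed to 207 to 215 CPM at day 12 and 394 to 422 CPM at day 18, with 1 and 0 of 10 under 1 CPM, and their part in the change of Zic2 was not tested. Fgf5 lay between 8 and 42 counts per library throughout, at 0.391 and 0.408 CPM at day 3, 0.585 and 0.349 CPM at day 9 and 1.43 and 1.48 CPM at day 12, and at this depth the difference between days 9 and 12 was not called (log2 change 1.61, SE 0.51, adjusted p = 0.106). Sox3 had 1.07 (adjusted p = 0.142) between the same days.

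The core factors and Etv4 had no call in the steps of the course other than that of Utf1. Pou5f1 ran from 578 to 715 CPM over the 10 libraries, Sox2 from 181 to 219 CPM, Sall4 from 308 to 413 CPM and Etv4 from 106 to 139 CPM. Pou5f1 was lower at days 3 and 9 than at the other days in all 10 libraries (-0.27, adjusted p = 0.149 for day 3 against day 0). By edgeR 0 of the 10 genes were called at day 9 against day 3, day 12 against day 9 and day 18 against day 0, where 1.12%, 3.84% and 0.514% of all genes tested were. At an unadjusted p under 0.05 there were 2, 4 and 1, and DESeq2 called 0 in each.

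**Figure D4:**
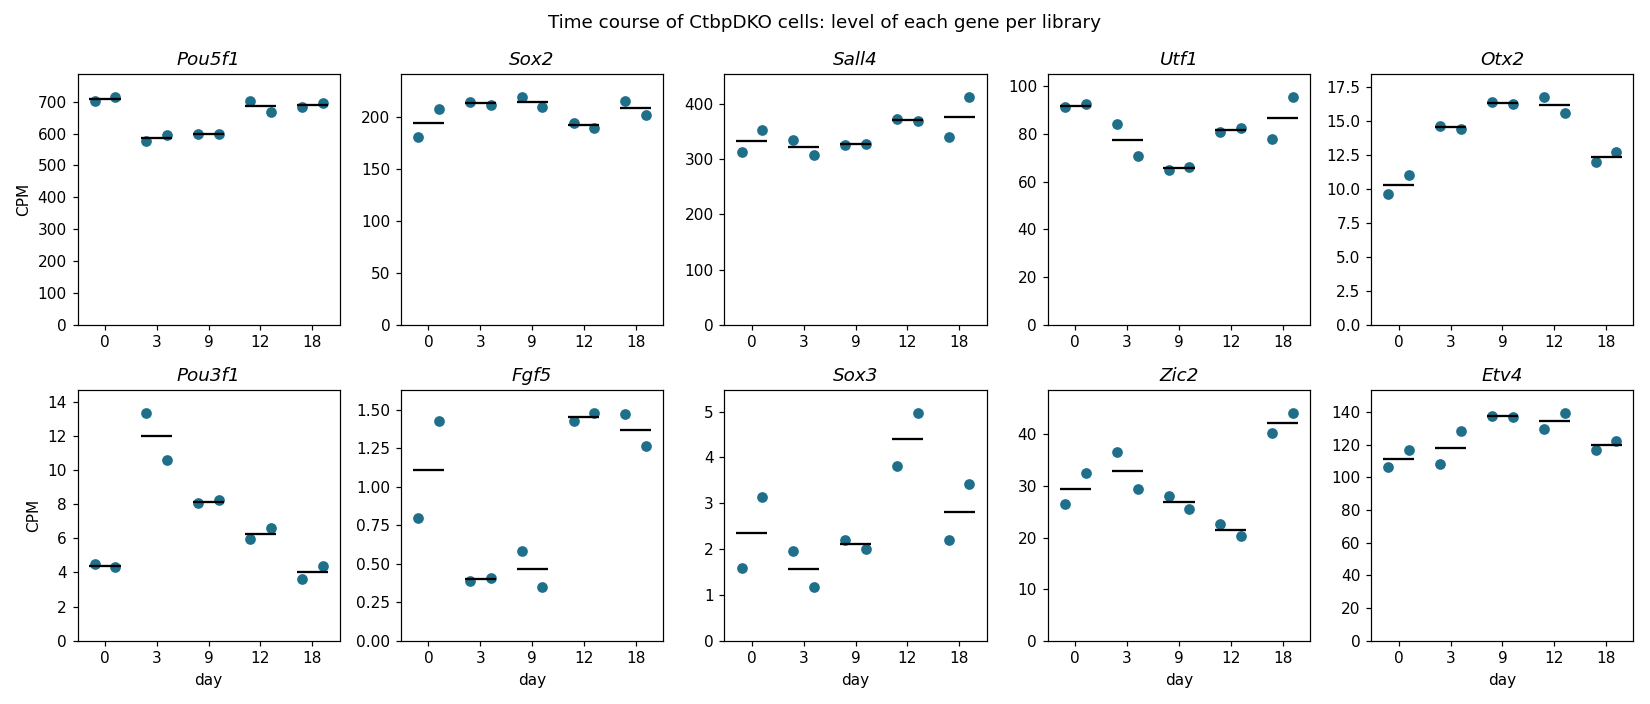
Level of each of the 10 genes in the 10 libraries of the time course, in CPM on linear axes that start at 0, against the day, with 1 point per library and a bar at the mean of each day. Pou3f1 is highest at days 3 and 9, and Pou5f1 is lowest on the same days.

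Other genes of the formative and primed epiblast, from a list of 22 genes tested that excludes the 10, also moved, though not always with the formative factors. In CtbpDKO against WT, where 26.1% of all genes tested were called, 5 rose and 11 fell (median log2 change -0.69, against 0.01 over all genes). Lef1, the transcription factor of Wnt signalling, went from 17.7 to 4.07 CPM (-2.12, edgeR adjusted p = 1.55e-05). In Ctbp_DuxTKO against CtbpDKO (8.15% of all genes called) 8 rose and 1 fell (median 0.22, against 0.0021), and Lef1 rose to 28 CPM (2.78, adjusted p = 2.31e-05). In DKO_Dppa2_KO against Dppa2KO (30.4% called) 2 rose and 11 fell (median -0.30, formative factors 0.42). In Ctbp_DuxTKO against DuxKO (41.0% called) 7 rose and 9 fell (median 0.07, formative factors 0.57). In Dppa2KO against WT (16.4% called) 5 rose and 6 fell (median -0.09, formative factors -0.84). In the Pramel7 table, where 21 of the list were tested, 4 rose and 7 fell in P7KO (median -0.32, against 0.01), 3 rose and 5 fell in P7OE (median -0.18, against -0.01) and 3 rose and 7 fell in DuxKO (median -0.35, against -0.01). Of all genes tested 9.48%, 19.9% and 16.7% were called in P7KO, P7OE and DuxKO. Dnmt3b, a DNA methyltransferase gained on exit from the naive state, was at a mean of 318 CPM in WT and fell to 76.6 CPM in P7KO (-2.05), 125 CPM in P7OE (-1.35) and 46.2 CPM in DuxKO (-2.78), with adjusted p = 2.1e-05, 0.000197 and 1.79e-06. It was at 160.3 CPM in DuxKO_P7OE, above DuxKO (1.80, adjusted p = 5.54e-05). In that comparison (21.4% called) 5 of the list rose and 5 fell (median 0.09, against -0.03, formative factors 0.66). Cdh2, of the same list, fell there from 45.7 to 9.97 CPM (-2.20, edgeR adjusted p = 1.18e-05). In the time course 3 rose and 1 fell at day 3 against day 0 (median 0.01, against -0.0027), where 4.99% of all genes were called. At day 9 against day 0, where 7.34% were called, 4 rose and 2 fell (median 0.13, against -0.0068). Dnmt3a, a second methyltransferase, rose from 114 to 400.2 CPM by day 3 (1.81, adjusted p = 2.31e-06) and fell to 108 CPM between days 9 and 12 (-2.06, adjusted p = 3.61e-07), and Lef1 was at 12 CPM at day 9 against 2.59 CPM at day 0 (2.21, adjusted p = 3.47e-05).

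Etv4 is induced by ERK, and 22 other genes of the FGF and ERK response were tested beside it. In CtbpDKO, where Etv4 rose, 9 of them rose and 3 fell (median log2 change 0.41, against 0.01 over all genes), where 26.1% of all genes tested were called. Dusp4, a phosphatase that ERK induces and that acts back on it, rose from 26 to 60.2 CPM (1.21, edgeR adjusted p = 4.51e-06), and Phlda1 rose from 1.89 to 10.3 CPM (2.45, adjusted p = 1.28e-05). In Ctbp_DuxTKO against CtbpDKO, where Etv4 fell and 8.15% of all genes were called, 0 rose and 3 fell (median -0.18, against 0.0021), among them Spry4, an inhibitor of the pathway (-0.52, adjusted p = 0.00499). Etv4 was also lower in Ctbp_DuxTKO against DuxKO, where 41.0% of all genes were called, but there 7 rose and 4 fell (median 0.18, against 0.04). In DKO_Dppa2_KO against Dppa2KO, where Etv4 rose and 30.4% were called, 6 rose and 3 fell (median 0.08, against 0.01). Etv4 rose in 4 other comparisons with WT. In DuxKO of the genotype table, 5 of the list rose and 4 fell (median -0.17, against -0.01), where 17.5% of all genes tested were called. In Dppa2KO 2 rose and 4 fell (median -0.04, against -0.02), where 16.4% were called. In DuxKO of the Pramel7 table, 2 rose and 3 fell (median -0.01, against -0.01), where 16.7% were called. In P7OE 3 rose and 3 fell (median -0.03, against -0.01), where 19.9% were called. In P7KO, where Etv4 was not called, 0 rose and 1 fell, where 9.48% were called.

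Across the 16 group means of the 3 tables, each centred on its table, these 10 genes were also compared with each other. The highest correlations of log2 CPM among the 10 were 0.599 for Otx2 with Pou3f1 and 0.578 for Pou5f1 with Sox2, and the lowest was -0.531 for Sox2 with Sox3. Among 9942 genes, Zic2 was most like Zic5 (Pearson r of 0.912), a gene of the same family, and Tfeb (0.824). Etv4 was most like Sik1 (0.899) and Agpat1 (0.895), Otx2 like Slc33a1 (0.824) and Acsl5 (0.809), Pou3f1 like Pim2 (0.858) and Arrb1 (0.835), Fgf5 like Fhl1 (0.831) and Smarca1 (0.767) and Sox3 like Hivep1 (0.854) and Mpzl2 (0.836). Pou5f1 was most like Sec61b (0.905) and Ciao1 (0.901), Sox2 like Dnmbp (0.940) and Dtx3 (0.873), Sall4 like Qk (0.921) and Mief1 (0.873), and Utf1 like Fitm2 (0.878) and Abt1 (0.865). These are descriptions over 16 points that share libraries, tables and scaling factors, and they are the highest of many values.

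By the RefSeq annotation of GRCm38.p6, Pou5f1 lies at chr17:35506032-35510777, Sox2 at chr3:34649995-34652461, Sall4 at chr2:168748332-168767201 and Utf1 at chr7:139943856-139945112. Otx2 lies at chr14:48656781-48667644, Pou3f1 at chr4:124657646-124660655, Fgf5 at chr5:98254184-98277033, Sox3 at chrX:60891366-60893430, Zic2 at chr14:122475384-122480328 and Etv4 at chr11:101769747-101785310. Sox2 lies within Sox2ot and Sall4 overlaps Gm14261, and Pou5f1 has related copies in the genome, so the counts of these 3 genes are uncertain to the extent that reads were shared.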

How the data were processed

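RNA-seq counts of 34 libraries of E14tg2a cells were used, and 6 bisulfite libraries were not analysed here. The authors deposited raw counts of reads per gene symbol in 3 tables with no normalization. Per the submitters' processing notes, Trim Galore, HISAT2, featureCounts and the build mm10 were used, with no versions or roles given, and per the labels' protocols libraries were made with a stranded kit. The annotation and the strand setting of the counting are not given in the sources used here. Every column matched 1 labelled sample (0 unmatched).

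Libraries were grouped by title, except for DKO_Dppa2_KO, which was grouped by description. Counts were tested with edgeR 4.0.16 in R 4.3.3 by the quasi-likelihood test, with 1 fit per table over all its groups, filterByExpr, which left 21193, 20161 and 20612 genes, trimmed mean of M values scaling (factors of 0.878 to 1.10, 0.877 to 1.17 and 0.915 to 1.10) and a prior count of 0.125. P-values were adjusted by Benjamini-Hochberg over all genes of a table, and a gene was called under 0.05. The share of structural RNA genes was 16.1% to 29.7% in the genotype table, 11.4% to 25.4% in the Pramel7 table and 17.0% to 26.4% in the course. The 2 libraries of a group differed by more than sampling noise in every group. Alternatives were DESeq2 1.42.0, other scaling, filters and groups in the fit, and leaving out each library. The fit was tested on simulated data.

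Likeness was sought among genes whose log2 CPM averaged 2 or more (prior count 2). From each gene list the text names up to 2 called genes with the largest change among those with a mean of at least 50 counts in the higher group. The members and the lists were chosen with earlier results of these data known, so no list is independent support.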

Additional observations from a re-analysis of the deposited data

Results flagged for a closer look

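The effect of CtBP loss differed between cells with and without Dux, by the interaction term of edgeR's fit on the log2 scale, for Zic2 (2.12), Sox3 (2.08), Fgf5 (1.37), Otx2 (1.31), Pou3f1 (0.83), Sall4 (0.49) and Etv4 (-1.41). Between cells with and without Dppa2 it differed for Zic2 (1.91), Otx2 (1.08), Pou3f1 (0.97) and Etv4 (-0.63). Both terms share the WT and CtbpDKO libraries. The effect of Pramel7 overexpression differed between cells with and without Dux for Pou3f1 (2.66), Zic2 (1.40) and Etv4 (-1.12). For Pou3f1 this term rests in part on WT at a mean of 72.2 CPM, where WT of the genotype table had 9.64 CPM. Pramel7 itself was higher in DuxKO_P7OE than in P7OE.

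DuxKO against WT gave values of opposite sign in the genotype and Pramel7 tables for 3 genes whose DuxKO libraries did not overlap WT in either table. They were Fgf5 (0.99 and -1.50), Otx2 (0.24 and -0.79) and Sox2 (-0.21 and 0.25). The difference between the tables was not tested. Among the 10 genes, 0 had an outlying library in the 4 WT libraries of the Pramel7 table, the 1 group large enough for the check. The check flags a single library far from the rest, so it cannot detect the split of replicates 3 and 4 from replicates 5 and 6.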

How the results depend on the processing

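Of 75 calls of a member in a comparison, 46 were kept in every alternative run, among them 30 of 48 in the genotype table, 15 of 22 in the Pramel7 table and 1 of 5 in the time course. No called gene changed sign in the alternatives run. Of the values that were not called, 1 was called with the opposite sign in an alternative. Others changed sign without a call, such as Pou3f1 in DuxKO of the genotype table (-0.15 to 0.34 over the alternatives). With the replicate block, fitted over the groups that share replicate numbers, Utf1 in DuxKO against WT of the Pramel7 table was 0.37 instead of -0.19. The replicate block gave 7 called genes instead of 8 in CtbpDKO against WT, 3 instead of 4 in DuxKO against WT of the genotype table and 10 instead of 7 in that of the Pramel7 table, 5 instead of 6 in DKO_Dppa2_KO against Dppa2KO and 6 instead of 7 in the interaction of Ctbp and Dux loss. Replicate numbers did not pair the libraries, since deviations of libraries with the same number correlated at -0.098 to 0.065, -0.024 to 0.016 and -0.080 to 0.092 in the 3 tables. In the Pramel7 table, DuxKO_P7OE against P7OE had 0 called with the block and 0 without, and 1 pair of groups, WT and DuxKO, shares the numbers 3 and 4 (0.016). Its remaining comparisons share no replicate numbers.

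Counts of called members moved with DESeq2 to 5 for the interaction of Pramel7 overexpression and Dux loss (3 in the report) and to 2 for day 3 against day 0 (1), which also had 2 without structural RNA genes. The interaction had 6 against WT replicates 3 and 4 and 5 against replicates 5 and 6, and P7KO against WT had 7 (4) against replicates 3 and 4. DuxKO_P7OE against DuxKO had 7 (4) when only these groups were fitted. With no filter on low counts, day 12 against day 9 and day 18 against day 0 had 1 each (0). The cause of these moves was not tested.

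With 1 library left out, the counts were 3 to 5 (8) in CtbpDKO against WT, 3 (4) in DuxKO against WT, 5 (5) in both comparisons of Ctbp_DuxTKO, 4 to 6 (6) in Dppa2KO against WT, 1 (3) and 4 to 6 (6) in DKO_Dppa2_KO against CtbpDKO and Dppa2KO, and 4 to 6 (7) and 2 to 3 (4) in the interactions of CtBP loss with Dux and Dppa2 loss. For Pramel7 cells they were 4 to 7 (7) in DuxKO, 3 to 4 (4) in P7OE and 3 to 5 (4) in P7KO against WT, 2 to 3 (4) in DuxKO_P7OE against DuxKO, 0 (0) against P7OE and 3 to 4 (3) in the interaction. In the course they were 1 (1) for day 3 and 0 to 1 (3) for day 9 against day 0, 0 to 1 (1) for day 18 against day 12, and 0 in the other 3. Where this left 1 library in a group, that library was taken to vary like the other groups. Depth limits Fgf5, which had as few as 8 counts in a library, and Sox3.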

Other observations

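Genes of the naive network other than the 4 core factors also moved in comparisons in which none of the core factors was called. Of 19 tested, 0 rose and 10 fell at day 3 against day 0 of the time course (median log2 change -0.57, against -0.0027 over all genes, of which 4.99% were called), among them Prdm14, a repressor that guards the naive state, which went from 8.49 to 3.74 CPM (-1.18, edgeR adjusted p = 0.0026). At day 9 against day 3, 7 rose and 1 fell (median 0.43, against 0.002, with 1.12% of all genes called), among them Klf2, a naive transcription factor (0.88, adjusted p = 0.00328). Both comparisons share the day 3 libraries. In DuxKO against WT of the genotype table, where 17.5% of all genes tested were called, 2 rose and 11 fell (median -0.43, against -0.01). In P7KO, where 9.48% were called, 7 rose and 2 fell (median 0.28, against 0.01).

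Rex2, a zinc finger gene of the same list, was lower in DuxKO of the genotype table (35.1 to 4.95 CPM, log2 change -2.82), in DuxKO of the Pramel7 table (48.7 to 5.26 CPM, -3.23) and in P7KO (9.53 CPM, -2.35). It was higher in DuxKO_P7OE than in DuxKO (83.9 CPM, 4.01). Sall3, a relative of Sall4, fell from 84.2 CPM in WT to 7.92 CPM in CtbpDKO (-3.41, adjusted p = 7.65e-10), while Sall4 was not called there.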
